A study of Mus musculus with 12 samples.

Results

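The unfolded protein response is the programme by which a cell adjusts the folding capacity of its endoplasmic reticulum (ER). Its genes were compared between livers given human apolipoprotein F (hApoF) and livers given green fluorescent protein (GFP). A list of 35 ER chaperone and unfolded protein response genes was used, and a gene counted as measured when a probe set of the array named it alone in the platform annotation. That held for 34 of the 35, out of 22180 genes in all. Pdia4 shares its probe set with a microRNA gene and was not analysed here, and Ero1lb was found under its current symbol Ero1b. Where a gene had more than 1 probe set, the one with the highest mean over all 12 arrays was taken.

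The animals were male C57BL6/J mice, 8 to 10 weeks old, and both groups received an Ad5 adenovirus by tail vein. The virus was Ad-GFP in 6 livers (GFP 1 to 6) and Ad-hApoF in the other 6 (hApoF 7 to 12). Livers were collected at 3 pm on day 4 after injection, at the end of a 6 h fast. All animals carried a virus, so the comparison is of hApoF with GFP and not with uninfected liver. Each array is 1 liver sample. Nothing in the labels ties an array to an animal of its own, so p-values reflect the scatter of these samples, which may be technical. Values are log2 RMA values, on which a difference of 1 is a doubling. Only the same gene is compared between arrays, since probe sets differ in brightness for reasons other than transcript abundance.

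Proteins that enter the ER are folded by the chaperone Hspa5 (BiP) and its partners, by lectin chaperones and by enzymes that form disulfide bonds, and molecules that fail to fold are sent back to the cytosol for degradation. A membrane sensor on each arm reports on unfolded protein. Ern1 (IRE1) splices the Xbp1 transcript into one that encodes an active factor, Atf6 is cut to release a factor, and Eif2ak3 (PERK) phosphorylates a translation initiation factor, which favours translation of Atf4. The hepatocyte secretes most plasma proteins and depends on this system. The array does not separate spliced from unspliced Xbp1, cut from uncut Atf6 or phosphorylated from free proteins, so only transcript levels were compared.

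Several of these genes carry known control elements in their promoters, and these are shown because the factors of the pathway are known to bind them. Genes of different arms can carry the same element. RefSeq promoters of build GRCm38.p6, 250 bases before to 50 after the gene start, were matched for 29 of the 34 genes (30 promoters). The ER stress element (ERSE), written as CCAAT, any 9 bases, then CCACG and searched on both strands, was found in 10 of the 30 promoters (33.3%), against 39 of the 32851 promoters in the table (0.119%). In the sites that follow, capitals mark the match and the strand is that of the gene. An inverted match reads CGTGG first. The first pair belongs to genes that were higher in hApoF livers, and the other 4 to genes that did not pass the test.
Dnajc3, chr14:118937807-118937865, plus strand: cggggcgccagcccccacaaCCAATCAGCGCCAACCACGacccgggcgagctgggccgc
Ero1b, chr13:12565662-12565720, plus strand: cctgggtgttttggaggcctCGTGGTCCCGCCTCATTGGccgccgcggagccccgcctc
Hspa5, chr2:34772005-34772063, plus strand: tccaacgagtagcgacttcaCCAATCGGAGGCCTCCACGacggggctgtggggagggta
Hsp90b1, chr10:86705618-86705676, minus strand: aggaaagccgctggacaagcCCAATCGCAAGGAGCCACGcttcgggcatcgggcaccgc
Creld2, chr15:88819500-88819558, plus strand: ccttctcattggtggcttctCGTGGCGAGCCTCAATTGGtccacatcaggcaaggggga
Syvn1, chr19:6046512-6046570, plus strand: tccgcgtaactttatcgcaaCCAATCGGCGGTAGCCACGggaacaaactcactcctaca

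The other ERSE matches were those of Calr, Canx, Pdia6 and Derl3, and Hsp90b1 had a second one. The match lay 105 to 87 bases before the start in Dnajc3, 201 to 183 in Ero1b and 65 to 47 in Hspa5. A variant, ERSE-II (ATTGG, any 1 base, CCACG), was found in 2 promoters, those of Herpud1 and Dnajb11, against 0.0365% of all. The shorter core ACGTGG, bound by XBP1 and ATF6, was found in 5 promoters (16.7%, against 8.31% of all), those of Dnajb9, Dnajc3, Pdia6, Derl3 and Herpud1. In Herpud1 it shares bases with the ERSE-II match. The Dnajb9 site is shown because Dnajb9 had the lowest p-value of the 34 genes. It is inverted and reads CCACGT.
Dnajb9, chr12:44210151-44210196, minus strand: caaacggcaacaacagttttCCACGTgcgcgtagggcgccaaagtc

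An element bound by ATF4 (TGATG, any base, AA, both strands) was found in 4 promoters (13.3%, against 3.97% of all). They are those of Asns, Chac1 and Trib3, which are Atf4 targets, and Herpud1. A pair of these sites is shown because Asns had the largest and Chac1 the lowest difference among the Atf4 targets. In Chac1 the match is inverted.
Asns, chr6:7693210-7693252, minus strand: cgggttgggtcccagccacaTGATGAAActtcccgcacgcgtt
Chac1, chr2:119351029-119351076, plus strand: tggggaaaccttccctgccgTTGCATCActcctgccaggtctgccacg

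In hApoF livers 5 of the 34 genes were higher than in GFP livers, and 0 were lower. The 5 were the Hspa5 cochaperones Dnajb9 and Dnajc3, the mannosidase-like degradation factor Edem1, the oxidase Ero1b and the sensor kinase Eif2ak3. Their changes were small, between 1.22-fold for Eif2ak3 and 1.44-fold for Dnajb9. The large chaperones Hspa5, Hsp90b1, Calr and Canx did not pass the test, and neither did Xbp1, Atf6 or Atf4. The test was limma's moderated test over all 22180 genes with Benjamini-Hochberg adjustment at 0.05. It called 6.91% of all genes in either direction, 2.11% as higher and 4.80% as lower, so 14.7% of these 34 genes stood against 2.11% of all genes called higher. The list was chosen with earlier results of these data known, which limits this comparison. Among the 12418 genes brighter than the median of all values, where 33 of the 34 lie, a fit of those genes alone called 5.62% higher and 6 of the 33. At an unadjusted limma p under 0.05, 10 of the 34 genes were higher and 0 lower. Of all 22180 genes 2249 (10.1%) were higher and 2467 lower at that cut. The exact permutation test, adjusted over all genes, called 3 higher and 0 lower, against 1.49% and 3.49% of all genes. They were Dnajb9, Dnajc3 and Edem2, and Edem2 is not one of the 5. Ero1b, Edem1 and Eif2ak3 did not pass it (exact permutation adjusted p = 0.062, 0.075 and 0.062). In these data only genes whose groups do not overlap pass this test after adjustment. The median change of the 34 genes was 0.13 on the log2 scale, against 0.03 for all genes, and 25 of the 34 (73.5%) were above 0, against 57.7% of all genes. The count of 5 was not stable to leaving out arrays. It was 2 (Dnajb9 and Dnajc3) without GFP 1, GFP 2, GFP 3, GFP 6 or hApoF 11, was 3 without any 1 of hApoF 7 to 10 or with arrays centred on their medians, and was 7 without hApoF 12.

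**Figure D1:**
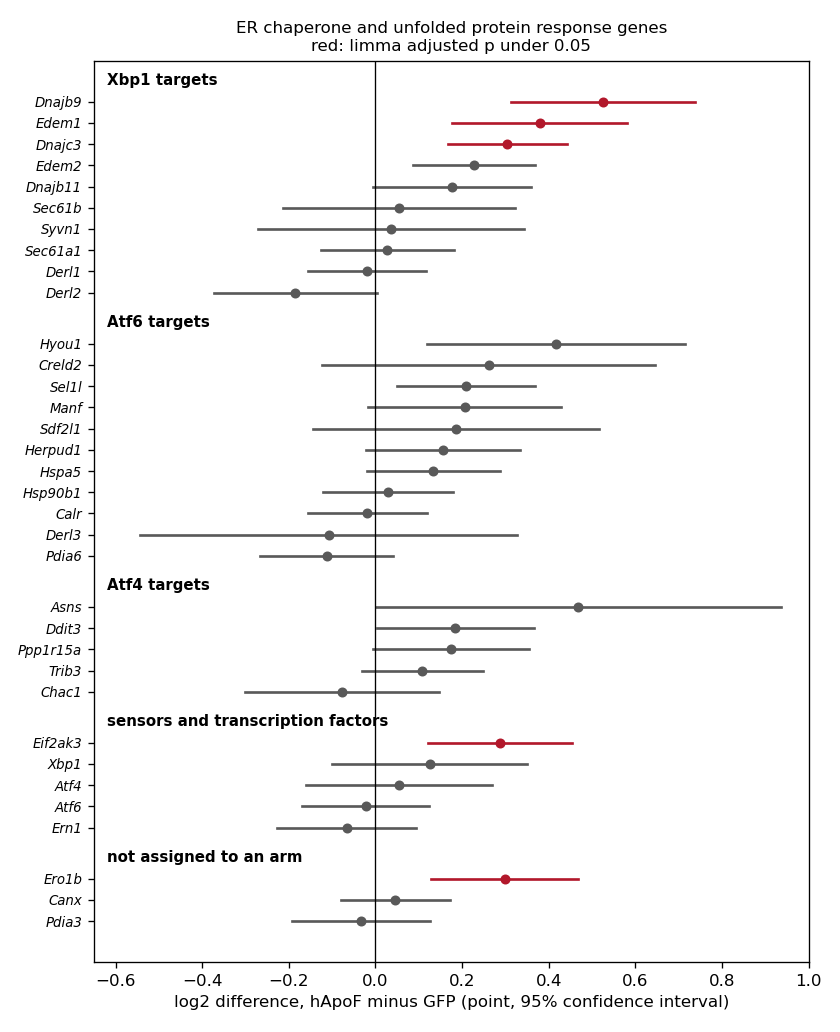
Log2 difference of hApoF minus GFP for each of the 34 genes (x axis), with the 95% confidence interval of the limma fit and 6 arrays a group. Genes are grouped by the arm they were assigned to from textbook knowledge, with sensors and unassigned genes apart. The 5 genes in red passed the test, from 0.29 for Eif2ak3 to 0.53 for Dnajb9, and the intervals of Hsp90b1, Calr and Canx lie close around 0.

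The genes were set side by side by the factor that is best known to induce them, a division that overlaps since several respond to both Xbp1 and Atf6. Of 10 Xbp1 targets 3 were higher, 0 lower and 7 did not pass, with a median change of 0.11. At an unadjusted limma p under 0.05, 4 of them were higher and 0 lower, against 2249 and 2467 of all 22180 genes. The exact permutation test also had 4 higher and 0 lower at an unadjusted p under 0.05. Of 11 Atf6 targets 0 were higher and 0 lower in limma, with a median of 0.16, and 2 had an unadjusted p under 0.05, Hyou1 and Sel1l, both higher. The exact permutation test called 0 of the 11 after adjustment and 3 as higher and 0 as lower at an unadjusted p under 0.05, against 9.81% and 11.4% of all genes. Of 5 Atf4 targets 0 passed in either direction, with a median of 0.17, and 2 had an unadjusted limma p under 0.05, Ddit3 and Asns, both higher. The exact test called 0 of the 5 after adjustment. At an unadjusted p under 0.05 it had 2 higher and 0 lower, Ddit3 and Trib3. Without hApoF 11 the Atf6, Xbp1 and Atf4 medians were 0.09, 0.11 and 0.14. Without hApoF 12 they were 0.19, 0.19 and 0.17. Of the 5 calls, 3 were of Xbp1 targets. Whether the arms differ was not tested. Groups without overlap, in which every hApoF array exceeded every GFP array, were found for 3 genes, against 1.49% of all genes (4.98% without overlap in either direction, 3.49% with hApoF lower, which 0 of the 34 showed). All 3 (Dnajb9, Dnajc3 and Edem2) are Xbp1 targets. They are the same 3 that the exact test called after adjustment, so the 2 counts are not separate results.

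Dnajb9 (ERdj4), a J-protein that directs Hspa5 to its clients and helps to keep Ern1 inactive, showed the largest change. Its level was 10.08, 10.23 and 10.54 (lowest, median and highest) in GFP livers and 10.56, 10.74 and 11.07 in hApoF livers. No hApoF array reached down into the GFP range, although the highest GFP array (GFP 4) and the lowest hApoF array (hApoF 7) lay close. It rose by 0.53 (SE 0.10). The limma adjusted p was 0.0045 and the exact permutation p 0.0022, the smallest that 6 against 6 arrays can give. The call held in each of the 12 omissions of 1 array (limma adjusted p 0.0018 to 0.014).

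Dnajc3 (p58IPK), a J-protein cochaperone known also as an inhibitor of Eif2ak3, had the tightest groups of the genes that passed. GFP livers had 10.47, 10.49 and 10.60 and hApoF livers 10.71, 10.80 and 10.94 as their lowest, median and highest values. The groups did not overlap, and GFP 5 stood above the other GFP arrays. It rose by 0.30 (SE 0.06; limma adjusted p = 0.0090, with an exact permutation p of 0.0022). This call too held in all 12 omissions, with a highest limma adjusted p of 0.026 when GFP 2 was omitted. Dnajb11 (ERdj3), the other J-protein, went from 8.90 ± 0.10 to 9.08 ± 0.17 (SD, n = 6 each). Of its hApoF arrays 4 were above every GFP array, and its difference of 0.18 did not pass (limma adjusted p = 0.255).

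**Figure D2:**
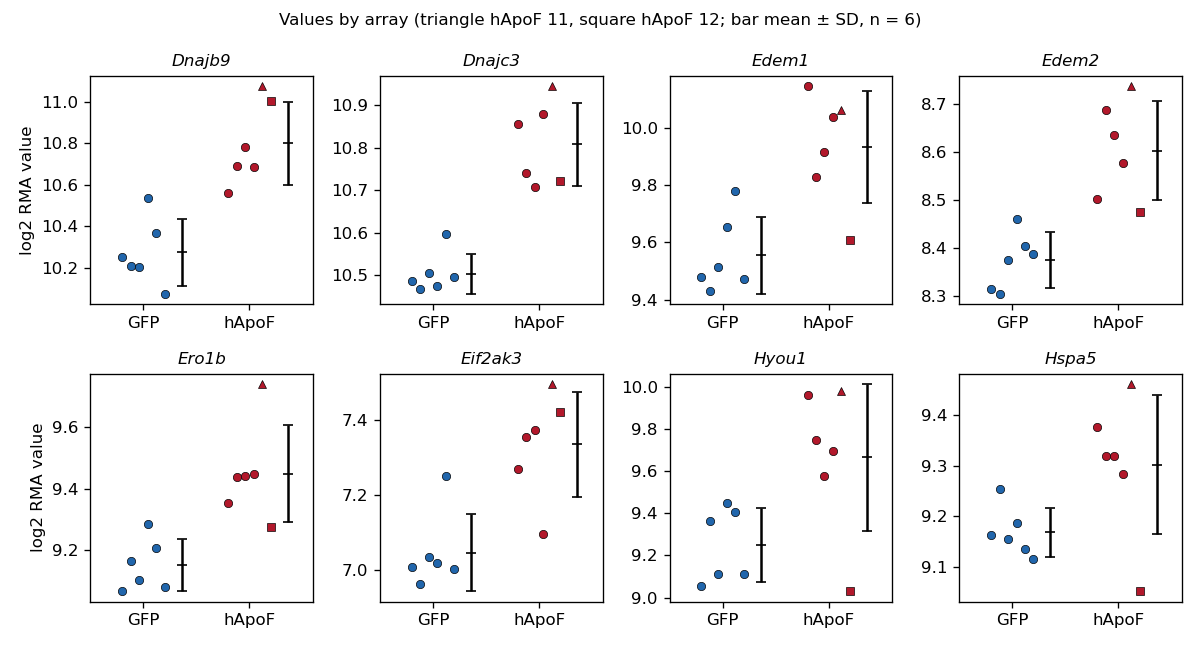
Log2 RMA value of 8 genes (y axis, each panel on its own scale) in the 6 GFP and 6 hApoF arrays, with the mean and SD beside each group, a triangle for hApoF 11 and a square for hApoF 12. The groups are apart in Dnajb9, Dnajc3 and Edem2, and hApoF 12 lies below all GFP arrays in Hyou1 and Hspa5.

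Hspa5 and the other luminal chaperones had higher mean levels in hApoF livers, by amounts that did not pass. Hspa5, the main ER chaperone, was 9.12, 9.16 and 9.25 in GFP livers and 9.05, 9.32 and 9.46 in hApoF livers (lowest, median, highest). In 5 of the 6 hApoF arrays it was above every GFP array, and in hApoF 12 it was below all of them. The difference was 0.13 (95% confidence interval -0.02 to 0.29, limma adjusted p = 0.307). It was 0.18 without hApoF 12 and 0.10 without hApoF 11, and passed in neither case (limma adjusted p = 0.091 and 0.458).

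Hyou1 (Grp170), which exchanges nucleotide on Hspa5, showed the same arrangement with a larger difference. It was 9.05, 9.24 and 9.45 in GFP livers and 9.03, 9.72 and 9.98 in hApoF livers. Again 5 hApoF arrays exceeded all GFP arrays and hApoF 12 was lowest of all 12. Its difference of 0.42 (SE 0.14) did not pass over all arrays (limma adjusted p = 0.090). It was 0.54 when hApoF 12 was omitted and 0.35 when hApoF 11 was, with limma adjusted p of 0.0058 and 0.168. Creld2, a disulfide-reducing ER protein, had a wide spread in hApoF livers, from 8.49 (hApoF 12) to 10.07 (hApoF 11), around GFP values of 8.78 to 9.05. Its difference was 0.26 (limma adjusted p = 0.439), and it was 0.09 without hApoF 11 and 0.40 without hApoF 12. Those of Manf, a secreted Hspa5-binding protein, and of Sdf2l1, which works with J-proteins, were 0.21 and 0.19 (limma adjusted p = 0.277 and 0.535), and 0.13 and 0.07 without hApoF 11. Sdf2l1 was 0.12 without GFP 2 and 0.29 without hApoF 12. Hsp90b1 (Grp94), the ER member of the Hsp90 family, was 12.08 ± 0.06 in GFP and 12.11 ± 0.13 in hApoF livers (SD, n = 6 each). Its interval of -0.12 to 0.18 leaves out a change of 1.5-fold in either direction, and the sign of its 0.03 difference turned when arrays were centred or quantile normalized again and without hApoF 10.

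The lectin chaperones and disulfide isomerases lay near 0. Calr and Canx, which hold newly made glycoproteins, differed by -0.02 (95% confidence interval -0.15 to 0.12) and 0.05 (-0.08 to 0.17). Pdia3, the isomerase that works with them, differed by -0.03 (-0.19 to 0.13), and Pdia6 by -0.11 (-0.27 to 0.04). The signs of the Calr and Pdia3 differences turned when hApoF 9 was left out, and that of Calr also without hApoF 12. Ero1b, the oxidase that restores disulfide isomerases, was the exception in this set. It was 9.07, 9.13 and 9.29 in GFP and 9.28, 9.44 and 9.74 in hApoF livers, with only hApoF 12 inside the GFP range. It rose by 0.30 (SE 0.08, limma adjusted p = 0.035), and omitting an array ended the call in 9 of 12 cases (highest limma adjusted p 0.079, when GFP 6 was omitted).

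Genes of ER-associated degradation were divided. Edem1, which marks misfolded glycoproteins by trimming their mannose residues, was 9.43, 9.50 and 9.78 in GFP and 9.61, 9.98 and 10.15 in hApoF livers. Only hApoF 12 fell within the GFP range. It rose by 0.38 (SE 0.09, limma adjusted p = 0.025), a call that ended in 7 of 12 omissions (highest limma adjusted p 0.064, when GFP 2 was omitted). A second, dimmer Edem1 probe set differed by 0.17, and the mean of both did not pass (limma adjusted p = 0.098). Its relative Edem2 was 8.30, 8.38 and 8.46 in GFP and 8.47, 8.61 and 8.74 in hApoF livers. The groups did not overlap, and the difference of 0.23 (SE 0.07) lay at the threshold (limma adjusted p = 0.051). It passed without GFP 4, without hApoF 12, and under 6 other settings.

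The ligase complex that carries proteins out of the ER showed no call. Sel1l, its scaffold, was above every GFP array in 5 of 6 hApoF arrays and differed by 0.21 (limma adjusted p = 0.111). Without hApoF 12 it was 0.26 (0.036) and without hApoF 11 0.16 (0.201). Syvn1 (Hrd1), the ligase itself, differed by 0.04 (-0.27 to 0.34), a value whose sign turned without GFP 1, hApoF 8, hApoF 9 or hApoF 11. Herpud1, which organises the complex, differed by 0.16 (limma adjusted p = 0.305), and by 0.10 without hApoF 11. The derlins, membrane proteins of the exit channel, had negative differences, -0.02 for Derl1, -0.18 for Derl2 and -0.11 for Derl3, and none of these passed (limma adjusted p = 0.888, 0.246 and 0.810). The sign turned for Derl1 without hApoF 12 and for Derl3 without hApoF 9, and Derl3 was -0.29 without hApoF 11. Derl3 varied most among hApoF arrays, from 5.52 in hApoF 9 to 7.25 in hApoF 11. Sec61a1 and Sec61b, subunits of the channel through which new proteins enter, differed by 0.03 and 0.05, and the sign of Sec61a1 turned when arrays were centred. Sec61b was dim, with a GFP mean of 4.75 that lay below the median of all values (4.99), so little can be read from it.

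Of the sensors and their factors, Eif2ak3 alone passed. It was 6.96, 7.01 and 7.25 in GFP and 7.09, 7.36 and 7.50 in hApoF livers, with hApoF 10 inside the GFP range through a high value in GFP 5. It rose by 0.29 (SE 0.08, limma adjusted p = 0.038). This was the least stable of the 5 calls and ended in 10 of 12 omissions (highest limma adjusted p 0.088, when GFP 2 was omitted). Ern1 differed by -0.07 (-0.23 to 0.09) and Atf6 by -0.02 (-0.17 to 0.12).

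The Xbp1 transcript was 9.45, 9.63 and 9.93 in GFP and 9.53, 9.79 and 10.11 in hApoF livers, with 1 hApoF array above the highest GFP value. Its difference of 0.13 (-0.10 to 0.35) did not pass (limma adjusted p = 0.540), and it was 0.06 without hApoF 8 and 0.08 without GFP 6. Atf4 was 7.26 to 7.80 in GFP and 7.28 to 7.69 in hApoF livers and differed by 0.05 (-0.16 to 0.27), with a sign that turned without GFP 4.

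Targets of Atf4 did not pass, although 4 of the 5 differences were above 0. Asns, asparagine synthetase, was 5.70, 6.08 and 6.65 in GFP and 6.01, 6.45 and 7.24 in hApoF livers. Only hApoF 12 and hApoF 7 exceeded the GFP range, and the difference of 0.47 had a wide interval (0.00 to 0.94, limma adjusted p = 0.234, exact permutation p = 0.121). Ddit3 (CHOP), a factor of stress-induced cell death, was 5.97, 6.30 and 6.39 in GFP and 6.29, 6.41 and 6.68 in hApoF livers. It differed by 0.18 (limma adjusted p = 0.227), and the GFP spread came from 1 low array, GFP 4. Ppp1r15a (Gadd34), which returns the initiation factor to its active state, differed by 0.17, Trib3, a pseudokinase, by 0.11, and Chac1, a glutathione-degrading enzyme, by -0.08 (limma adjusted p = 0.252, 0.374 and 0.726).

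The SD was larger among hApoF than among GFP arrays for 27 of the 34 genes. In hApoF 11 the value was the highest of its group for 18 of the 34 genes and the lowest for 0, and in hApoF 12 it was the lowest for 16 and the highest for 1, Asns. The mean deviation from the GFP mean over the 34 genes was 0.31 in hApoF 11 and 0.03 in hApoF 12, and 0.04 to 0.16 in the other hApoF arrays. Over the Atf6 targets it was 0.48 in hApoF 11 and -0.16 in hApoF 12. Over the Atf4 targets hApoF 12 had the highest mean deviation of all arrays, 0.34. Most of this mean came from Asns (1.16), with 0.03 (Ppp1r15a) to 0.24 (Ddit3) in the rest. GFP arrays lay between -0.03 and 0.04 over all 34 genes.

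**Figure D3:**
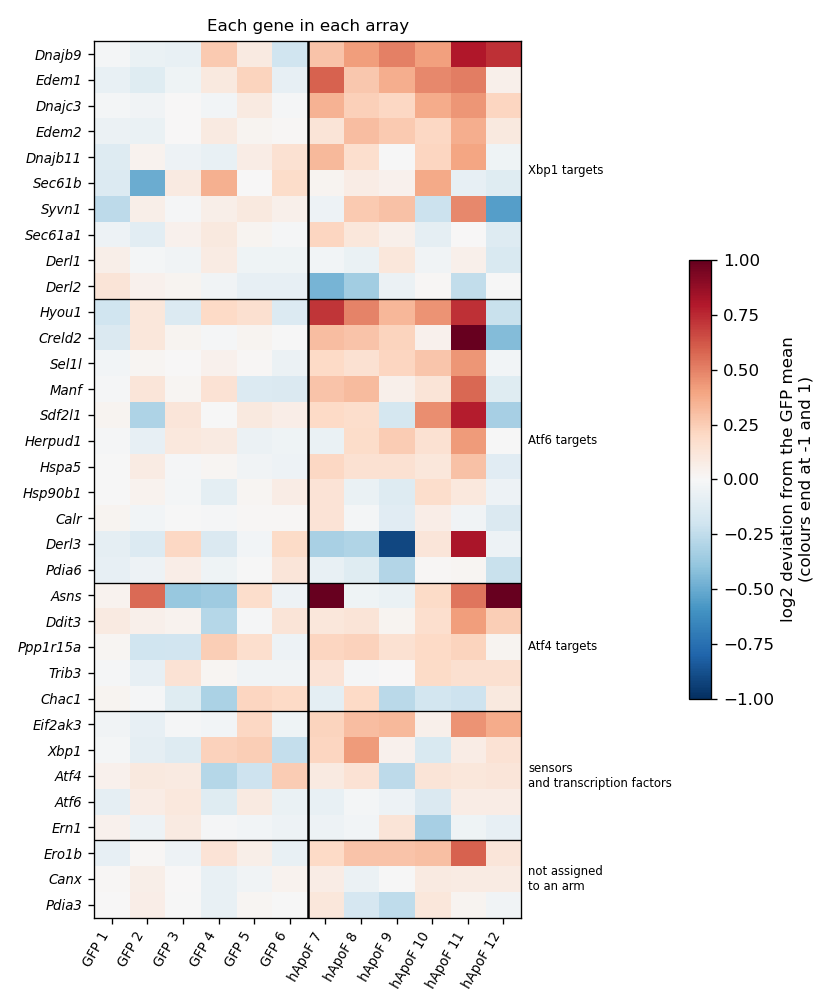
Deviation of each gene (rows, by arm) in each array (columns) from its GFP mean, on the log2 scale, with colours ending at -1 and 1. The mean deviation of the Atf6 targets is highest in hApoF 11 (0.48), where Calr is below its GFP mean (-0.04). In hApoF 12 the Atf6 targets are below the GFP mean (mean deviation -0.16). Dnajb9, Dnajc3, Ero1b, Edem1, Edem2, Eif2ak3, Ddit3 and Ppp1r15a are above the GFP mean in all 6 hApoF arrays.

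Of the cell type markers measured, those of Kupffer, endothelial and stellate cells held the only ones past the limma test, all higher in hApoF livers. The exact permutation test after adjustment called 1 hepatocyte and 1 stellate cell marker higher. It called 0 of 7 Kupffer cell and macrophage markers and 0 of 6 endothelial markers. Hepatocyte markers were high on all arrays (list means 12.43 to 12.58 in GFP and 12.56 to 12.64 in hApoF livers), with 0 of 7 past the test (limma), 3 of them higher and 0 lower at an unadjusted p under 0.05. Of 7 Kupffer cell and macrophage markers 2 were higher in limma, and the list mean was 6.28 to 7.57 in GFP and 6.94 to 7.96 in hApoF livers, highest in hApoF 12. Endothelial markers (1 of 6 higher) ranged from 8.21 to 8.73 and 8.52 to 8.94, and stellate cell markers (2 of 6 higher) from 7.67 to 8.08 and 7.90 to 8.32, the last again in hApoF 12. At an unadjusted limma p under 0.05, 3 Kupffer cell and macrophage, 4 endothelial and 5 stellate cell markers were higher and 0 lower (10.1% of all genes were higher). The list means differed by 0.55, 0.30 and 0.26 in these sets, against 0.08 for hepatocyte markers. Plasma and B cell markers, of interest because plasma cells are rich in ER, ranged from 4.78 to 4.95 and 4.93 to 5.12, with 0 of 7 past the limma test and 2 higher at an unadjusted p under 0.05. Of the 7, 5 lay below the median of all values. In whole liver, a different share of a cell type and a different level per cell cannot be told apart. Of bile duct, T and NK cell and pancreatic acinar markers 0 of 4, 0 of 6 and 0 of 4 passed in limma, with 1 higher and 1 lower, 2 higher and 1 lower, and 0 at an unadjusted p under 0.05. The part of these markers in the results was not tested.

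Other genes of the pathway gave calls in both directions. Of 144 measured genes in 7 sets, 8 were higher and 5 lower (9.03% called, against 6.91% of all genes), with a median change of 0.04. The sets were chosen for their function, with earlier results of these data known. Of all genes 2.11% were called higher and 4.80% lower. At an unadjusted limma p under 0.05 there were 32 higher and 11 lower, against 2249 and 2467 of all 22180 genes. The chaperone set had 8 and 0 of these, the degradation set 6 and 1, and the translocon set 8 and 1. The transport set had 5 and 0, and the further Atf4 targets 3 and 4. Of 22 further chaperones, foldases and oxidases 3 rose and 0 fell. They were Pdia5, a disulfide isomerase (0.62, SE 0.11, limma adjusted p = 0.0018), Ero1a, the paralog of Ero1b (0.34, limma adjusted p = 0.0061), and Hspa13, an Hsp70-type protein of the ER (0.37, limma adjusted p = 0.039). Pdia5 went from 8.46 ± 0.22 to 9.08 ± 0.16 (SD, n = 6 each) without overlap, and Ero1a from 8.63 ± 0.04 to 8.96 ± 0.12, also without overlap. Both Ero1 oxidases were thus higher in limma, though omitting an array ended the Ero1b call in 9 of 12 cases.

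In the translocon and glycosylation set 1 of 27 rose and 1 fell. Tram1, which assists membrane insertion, rose by 0.33 and Ssr2, a subunit of the signal sequence receptor complex, fell by 0.35 (limma adjusted p = 0.0027 and 0.022), both without overlap between groups. Of 16 further degradation genes Herpud2, the relative of Herpud1, rose by 0.23 and Man1b1, an ER mannosidase, fell by 0.35 (limma adjusted p = 0.040 and 0.0070). In ER to Golgi transport 2 of 21 rose, the cargo receptor Lman1 (0.25) and the coat subunit Sec23b (0.39), and 0 fell (limma adjusted p = 0.046 and 0.049).

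Of 25 further Atf4 targets 1 rose and 1 fell. Nars, asparaginyl-tRNA synthetase, rose by 0.31 (limma adjusted p = 0.019), and Sesn2, a sestrin that is also a p53 target, fell by 0.45 (limma adjusted p = 0.023). Among 18 ER stress regulators 0 rose and 1 fell. It was the death receptor Tnfrsf10b, a target of both Ddit3 and p53, which went from 5.97 ± 0.57 to 4.38 ± 0.27 (SD, n = 6 each) and fell by 1.59 (SE 0.22, limma adjusted p = 2.8e-04). The hApoF mean lies below the median of all values. Of 15 cytosolic and mitochondrial heat shock genes, which respond to a separate stress programme, 0 rose and 1 fell, the cytosolic chaperone Hsp90aa1 (log2 difference -0.47, limma adjusted p = 0.0057). At an unadjusted limma p under 0.05 that set had 0 higher and 2 lower, and the regulators 2 higher and 3 lower.

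**Figure D4:**
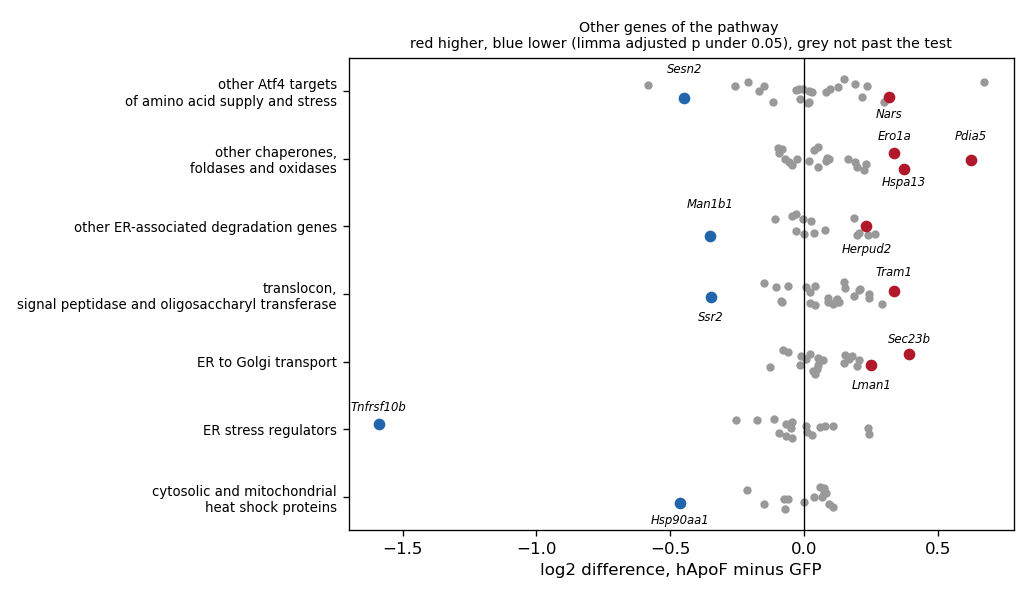
Log2 difference of hApoF minus GFP (x axis) for the 144 other genes of the pathway in 7 functional sets, 1 point a gene, red for higher and blue for lower past the limma test. Of the set of chaperones, foldases and oxidases 3 are red, with Pdia5 at 0.62, and Tnfrsf10b at -1.59 is the farthest point.

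Genes with an ERSE in the promoter were also counted without regard to the list. Of 37 such genes 29 were measured, and 4 were higher and 0 lower in limma (2.11% and 4.80% of all genes), with a median change of 0.05 (0.03 for all genes). Of the 10 that are on the list 2 were higher (Dnajc3 and Ero1b). Of the 19 that are not, 2 were higher, Acacb, acetyl-CoA carboxylase 2 (0.56), and Esp18 (0.40), with limma adjusted p = 0.0043 and 0.026. Of the 5 genes that rose, 2 had an ERSE match (40.0%), against 8 of the 25 promoters of listed genes that did not pass (32.0%). Edem1 and Eif2ak3 had no match to any of the 4 motifs in this window.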

How the data were processed

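Per the submitters' processing notes, the authors used oligo and RMA (background correction, quantile normalization, median-polish summary) to make the log2 values, which were analysed as deposited; tool versions, settings and genome build are not stated in the labels. Of 35145 probe sets 23521 name 1 gene in the platform annotation, which can be old, 1814 name several and 9810 none. Dim probe sets were kept. Array medians were 4.93 to 5.03, and the number of arrays limits the precision. Groups follow the labels, which name no batch.

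The members and lists were chosen with earlier results of these data known, and genes were assigned to arms from textbook knowledge. The 22180 genes were fitted together (limma 3.58.1 in R 4.3.3, lmFit and eBayes at default settings without covariates, Benjamini-Hochberg adjustment, threshold 0.05). A two-sided exact permutation test used the 924 assignments of 6 of 12 arrays. The fit was tested on artificial data beforehand. It recovered 74% of 50 simulated log2 differences of 0.5 and 96% of 50 of 1, with 10 false calls. Smaller differences were not simulated, so a gene that did not pass may still differ by a small amount. Other genes of the pathway are named where they passed, up to 3 a set by lowest p. Acacb and Esp18 were named after their values were seen. Alternatives were 2 scalings, trend and robust settings, a brightness filter, 2 probe set rules and omission of arrays. Python 3.11.15, pandas 2.3.3, scipy 1.17.1 and matplotlib 3.10.9 were used.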

Additional observations from a re-analysis of the deposited data

Results flagged for a closer look

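In 7 of 68 groups of 6 arrays (34 genes in each virus group) 1 array stood apart from the other 5 by Dixon's criterion at the 95% level. Chance gives about 1 in 20 such groups. In GFP livers Sdf2l1 was 7.43 in GFP 2 (others 7.74 to 7.86), Syvn1 7.14 in GFP 1 (others 7.39 to 7.50) and Ddit3 5.97 in GFP 4 (others 6.25 to 6.39). Both high GFP values were in GFP 5, namely 10.60 for Dnajc3 (others 10.47 to 10.50) and 7.25 for Eif2ak3 (others 6.96 to 7.04). In hApoF livers Ero1b was 9.74 in hApoF 11 (others 9.28 to 9.45) and Atf4 was 7.28 in hApoF 9 (others 7.63 to 7.69). Of these genes Dnajc3, Ero1b and Eif2ak3 were higher in hApoF livers. Without GFP 5 Dnajc3 and Eif2ak3 passed and Ero1b did not, and without hApoF 11 Dnajc3 alone of the 3 passed (limma).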

How the results depend on the processing

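No paired analysis was possible because the groups share no replicate number. The count of members higher, 5, was 3 with each array centred on its median, and 2 to 7 when 1 array or both GFP 4 and hApoF 12 were left out. The count of members lower was 0 under each setting run. The 1533 genes changed over all genes became 1015 (GFP 3 omitted), 1019 (GFP 2) or 1021 (GFP 6), and 2049 with GFP 4 and hApoF 12 both omitted. The median changes of all members and of the Atf6, Xbp1 and Atf4 targets stayed above 0 in the settings run. The Atf6 median of 0.156 was 0.085 without hApoF 11 and 0.188 without hApoF 12. The Xbp1 median of 0.115 was 0.107 without hApoF 11 and 0.186 without hApoF 12. Dnajb9 and Dnajc3 passed in every setting run. Of 679 alternative values of single members, 613 kept direction and side of the threshold, 33 lost a call, 12 gained one and 21 turned in sign, the last all in genes that did not pass. Centred arrays gave -0.0020 for Hsp90b1 and -0.0039 for Sec61a1, and quantile normalization -0.033 for Hsp90b1. Omitting arrays gave -0.00050 to 0.060 for Hsp90b1, -0.049 to 0.0062 for Calr, -0.064 to 0.011 for Pdia3, -0.053 to 0.165 for Syvn1, -0.047 to 0.022 for Derl1, -0.293 to 0.052 for Derl3, -0.010 to 0.078 for Sec61a1, -0.045 to 0.160 for Sec61b, -0.066 to 0.0022 for Atf6 and -0.016 to 0.118 for Atf4. The cause was not tested.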
